A study of Mus musculus with 12 samples.

Results

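Foxp3, Ctla4, Ikzf2, Ikzf4 and Nrp1 are genes that define regulatory T (Treg) cells, and their transcript levels were followed across 4 groups of 3 libraries of Treg cells sorted from mouse bone marrow (BM). The members were taken from a list of Treg identity genes by symbol, and 5 of 5 were among the 14259 genes of the count table. All 5 also passed the filter on low counts that left 13782 genes for testing.

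Treg cells restrain other immune cells, and their identity rests on the transcription factor Foxp3, encoded on the X chromosome. Helios (Ikzf2) and Eos (Ikzf4) are zinc finger transcription factors of the Ikaros family that act beside Foxp3. CTLA-4 takes the ligands CD80 and CD86 away from the costimulatory receptor CD28, and neuropilin-1 (Nrp1) is a surface receptor for semaphorins and for vascular endothelial growth factor. In BM, Treg cells are known for protecting hematopoietic stem cells.

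All mice were lethally irradiated and received WT conventional T cells together with Treg cells that were Tbet-/-, ST2-/- or WT. The groups were tumor Tbet-/-, tumor ST2-/- and tumor WT, in which the mice also received MLL-AF9 leukemia cells that carry eGFP, and no tumor WT, without leukemia cells. Treg cells were sorted on day 14 as CD4+CD25+ cells, with eGFP of a Foxp3 reporter as a further gate for WT and ST2-/- cells and low CD127 in place of it for Tbet-/- cells. Foxp3, Cd4 and the genes of CD25 (Il2ra) and CD127 (Il7r) were thus used to choose the cells, and the gate of tumor Tbet-/- differed from that of the other groups. Cells of every strain had a C57BL/6 background. The labels do not say that each library came from a different mouse, so the p-values measure the spread between these libraries, which may be technical.

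Depth was 13272943 to 18042521 counts per library, and no pair of libraries within a group agreed within sampling noise. Il1rl1, the gene of ST2, was still read 1130 to 1229 times per library in tumor ST2-/- and 1967 to 2290 times in tumor WT, which puts its CPM (counts per 1000000 counts) at 69.8% of the tumor WT mean. Per count of the T cell genes Cd3e and Cd4, however, the Il1rl1 mean in tumor ST2-/- was 1.37 times that in tumor WT. Per count of Foxp3 it was 1.03 times that in tumor WT, with overlapping libraries. Tbx21, the gene of T-bet, was read 195 to 258 times per library in tumor Tbet-/- and 560 to 773 times in tumor WT, which is 37.9%. Counts per gene do not show whether these reads came from the deleted part, so both groups are named by their labels. Tumor ST2-/- and tumor WT also have column names with identical sequencer sample numbers, though their counts differ, and they were told apart by the genotype in those names. The doubt this leaves bears on every comparison that includes tumor ST2-/- or tumor WT. Transcripts of cells other than Treg cells were present in every group. The summed level of 13 T cell genes was 1895 to 1937 CPM in tumor Tbet-/-, 875 to 890 CPM in tumor ST2-/-, 1685 to 1730 CPM in tumor WT and 673 to 700 CPM in no tumor WT. The sum of the 11 myeloid markers in the table was higher than that of the T cell genes in each library, at 7308 to 7439 CPM, 5220 to 5887 CPM, 8828 to 9116 CPM and 5459 to 5757 CPM in the same order of groups. The sum of 11 B cell markers was 85.1 to 91.2 CPM in tumor Tbet-/-, 2008 to 2070 CPM in tumor ST2-/-, 835 to 850 CPM in tumor WT and 2809 to 2838 CPM in no tumor WT. The 11 leukemia and progenitor genes, which bear on the leukemia cells that share the color of the reporter, summed to 1052 to 1085 CPM in tumor Tbet-/-, 1269 to 1323 CPM in tumor ST2-/-, 867 to 897 CPM in tumor WT and 1272 to 1299 CPM in no tumor WT, which had no leukemia cells. Myb made up much of this sum, at a mean of 417, 894, 462 and 1055 CPM in these groups, with its smallest share in tumor Tbet-/-. Most single genes of the list took another direction. Against no tumor WT, 10 of 11 were higher in tumor Tbet-/- (31.9% of all genes). In tumor ST2-/- 10 were higher (15.0% of all genes), and in tumor WT 9 were (29.0%). The median log2 fold changes of the list were 2.93, 2.12 and 2.32. Meis1, for example, averaged 108 CPM in tumor Tbet-/-, 42.1 CPM in tumor ST2-/-, 46.4 CPM in tumor WT and 6.95 CPM in no tumor WT. Cd8a and Cd8b1 summed to at most 12.8 CPM in any library. No gene of these lists was at 0 in a group. Foxp3, Cd3e and Cd4 were counted in all 12 libraries, as the Treg label requires, and markers of other lineages were abundant beside them. In such bulk RNA, fewer cells of a type and less RNA per cell cannot be told apart.

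**Figure D1:**
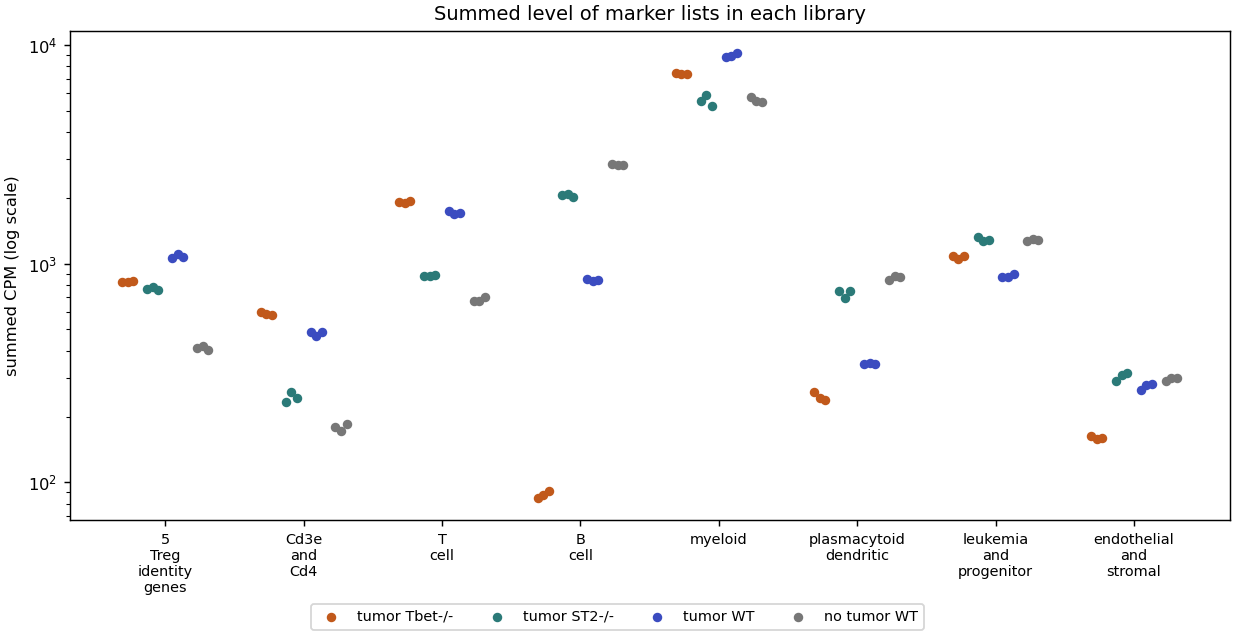
Summed CPM on a log scale for the 5 Treg identity genes, for Cd3e and Cd4, and for marker lists of T cells, B cells, myeloid, plasmacytoid dendritic, leukemia and progenitor, and endothelial and stromal cells, with 1 point per library. The sum of the 5 genes was 820 to 830 CPM in tumor Tbet-/-, 756 to 779 CPM in tumor ST2-/-, 1060 to 1102 CPM in tumor WT and 404 to 420 CPM in no tumor WT, and the B cell sum ran in another order.

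The genes lie on 4 chromosomes of GRCm38: Foxp3 at chrX:7573644-7595245 and Nrp1 at chr8:128358604-128503363 on the plus strand, Ctla4 at chr1:60887000-60915832 on the plus strand, Ikzf2 at chr1:69531214-69687245 on the minus strand and Ikzf4 at chr10:128630843-128645991 on the minus strand, each span holding the exons, introns and UTRs that GENCODE gives. Exons of Foxp3 overlap those of 4 genes, of which Ccdc22 and Ppp1r3f lie on the opposite strand and have counts of their own. The strand setting of the counting was not given in the sources used here, so Foxp3 reads near these exons could be shared. Promoters of 3 of the 5 genes, Foxp3, Ctla4 and Nrp1, were matched in RefSeq on GRCm38.p6 and are shown, while none was matched for Ikzf2 or Ikzf4. Each runs from 250 bases before to 50 bases after a transcription start, on chrX:7579426-7579725, chr1:60908775-60909074 and chr8:128358823-128359122, and Foxp3 has a further start on chrX:7580233-7580532 that is not shown. Capitals mark the core letters GGAAA bound by NFAT factors, written TTTCC where they lie on the other strand.
Foxp3 promoter: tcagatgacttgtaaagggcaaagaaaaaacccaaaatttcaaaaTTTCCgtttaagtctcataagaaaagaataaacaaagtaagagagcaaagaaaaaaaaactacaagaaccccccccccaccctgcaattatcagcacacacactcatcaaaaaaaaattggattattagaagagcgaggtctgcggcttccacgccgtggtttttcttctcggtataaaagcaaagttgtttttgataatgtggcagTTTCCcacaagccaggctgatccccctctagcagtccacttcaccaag
Ctla4 promoter: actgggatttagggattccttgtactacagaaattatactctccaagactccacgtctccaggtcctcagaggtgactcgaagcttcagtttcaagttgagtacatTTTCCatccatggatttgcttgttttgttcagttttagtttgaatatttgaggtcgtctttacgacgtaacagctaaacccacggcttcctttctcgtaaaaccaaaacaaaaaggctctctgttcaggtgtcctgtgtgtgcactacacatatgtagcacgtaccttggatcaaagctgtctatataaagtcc
Nrp1 promoter: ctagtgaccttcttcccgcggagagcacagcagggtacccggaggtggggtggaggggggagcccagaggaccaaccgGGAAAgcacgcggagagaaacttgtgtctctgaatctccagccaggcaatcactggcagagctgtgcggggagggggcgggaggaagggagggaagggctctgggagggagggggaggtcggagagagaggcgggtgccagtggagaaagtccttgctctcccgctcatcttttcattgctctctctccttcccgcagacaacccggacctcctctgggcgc
Both strands were searched for 4 motifs, which did not overlap each other in these windows. GGAAA had 2 matches in the Foxp3 window and 1 each in those of Ctla4 and Nrp1, and 61.3% of 32851 mouse promoters of the same length hold it. The forkhead letters TGTTTAC (in 3.65% of promoters), the Runx letters TGTGGT (16.8%) and the STAT letters TTCNNNGAA (8.3%) had no match in the 3 windows shown. The further Foxp3 window, not shown, held 1 STAT match at -139 from its start site, which overlaps 1 GGAAA match at -140 on the other strand. The GC content was 40.7% for Foxp3, 42% for Ctla4 and 64% for Nrp1.

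Between tumor WT and no tumor WT, which asks how Treg cells differ in a leukemic BM, all 5 genes were higher, at an adjusted p below 0.05 in edgeR's quasi-likelihood test. Of all genes tested, 29.0% were higher. No minimum fold change was required, while the study's methods add a log2 fold change beyond 1. Counts at that threshold are given at the end. All 5 were lower in tumor ST2-/- against tumor WT, with 22.8% of all genes lower. Rn45s, a precursor of ribosomal RNA, made up 7.07 to 7.44% of counts in tumor ST2-/-, against 3.53 to 3.66% in tumor WT (4.72 to 5.20% in tumor Tbet-/- and 4.49 to 4.93% in no tumor WT), and its part in the result was not tested. Against the same tumor WT libraries, 4 were lower and Nrp1 was higher in tumor Tbet-/-, with 20.6% of all genes lower and 18.1% higher. Ctla4 and Nrp1 were higher and Ikzf4 was lower in tumor Tbet-/- against tumor ST2-/-, with 26.4% of all genes higher and 27.4% lower. Against no tumor WT, all 5 were higher in tumor ST2-/- (15.0% of all genes) and 4 were higher in tumor Tbet-/- (31.9% of all genes). The comparisons share libraries: tumor WT stands in 3 of the 6 and no tumor WT in 3, so these counts are not independent of each other. The differences from no tumor WT were 0.67 for Foxp3, 1.03 for Ikzf2, 0.71 for Ikzf4, 0.71 for Ctla4 and 0.48 for Nrp1 on the log2 scale in tumor ST2-/-, and 0.73, 1.07, 0.23, 1.04 and 1.23 for the same genes in tumor Tbet-/-, where Ikzf4 was at the threshold (adjusted p = 0.056). CPM scaled by TMM compares the gene with all other transcripts of the library, and the sums of other lineages given above moved between the same groups. Their part in these results was not tested.

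**Figure D2:**
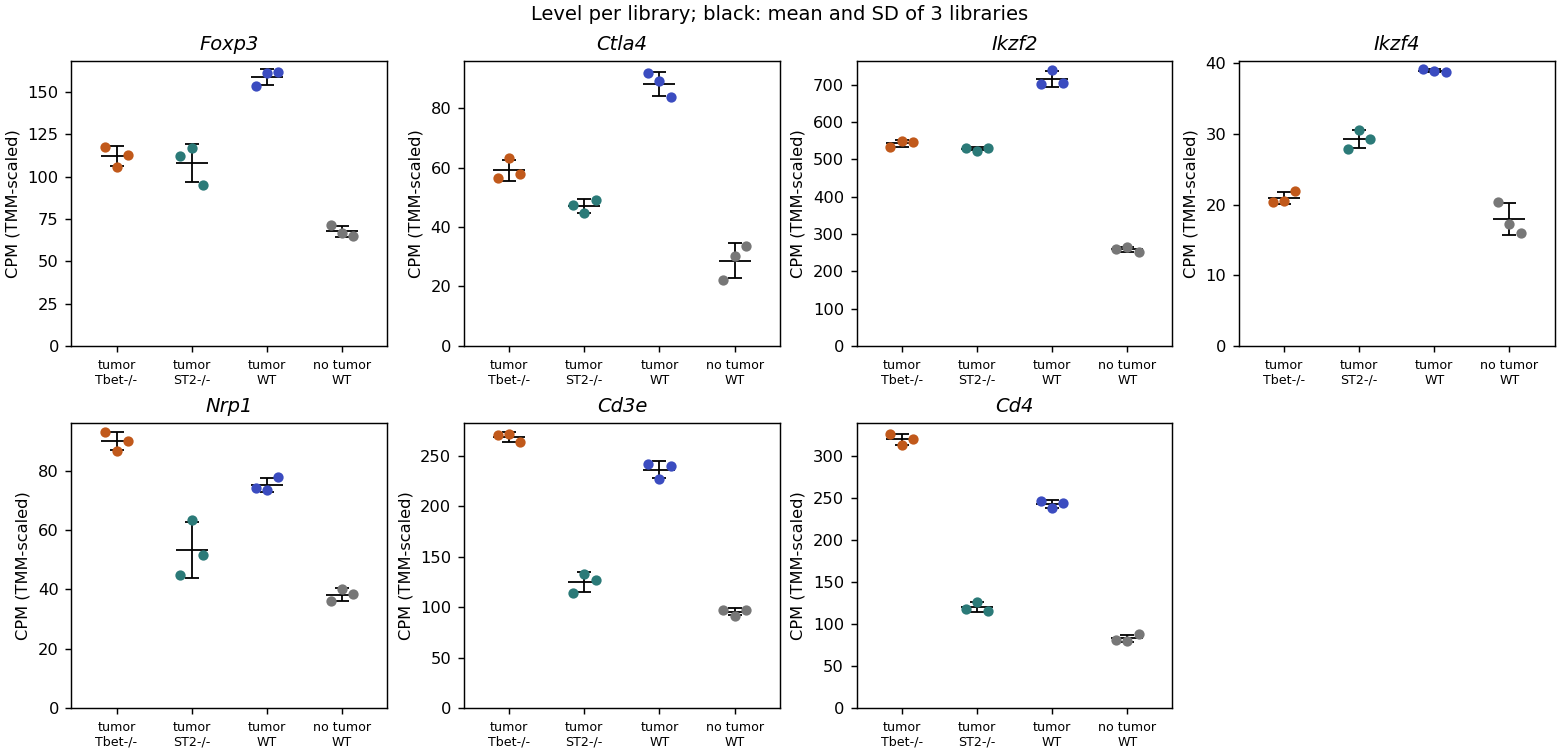
CPM after TMM scaling of Foxp3, Ctla4, Ikzf2, Ikzf4 and Nrp1 on axes that start at 0, with 1 point per library and the mean and SD of 3 libraries in black. Tumor WT libraries are highest for 4 genes, tumor Tbet-/- libraries are highest for Nrp1, and no tumor WT libraries are lowest for all 5.

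Foxp3, the lineage-defining factor, had 118, 106 and 113 CPM in tumor Tbet-/-, 112, 117 and 95.2 CPM in tumor ST2-/-, 153, 161 and 162 CPM in tumor WT, and 71.4, 66.8 and 65.1 CPM in no tumor WT. The tumor Tbet-/- and tumor ST2-/- libraries overlapped, and both groups lay below every tumor WT library and above every no tumor WT library. The log2 fold change was 1.23 (SE 0.06, adjusted p = 3.6e-34) in tumor WT against no tumor WT. It was -0.55 (SE 0.05, adjusted p = 3.5e-15) in tumor ST2-/- and -0.50 (SE 0.05, adjusted p = 1.7e-13) in tumor Tbet-/-, both against tumor WT. Tumor Tbet-/- and tumor ST2-/- differed by 0.05 (SE 0.05, adjusted p = 0.42), and this sign turned to -0.03 without replicate 3 of tumor ST2-/-. The order of the means was tumor WT at 159 ± 4.65 CPM, tumor Tbet-/- at 112 ± 5.93 CPM, tumor ST2-/- at 108 ± 11.4 CPM and no tumor WT at 67.8 ± 3.25 CPM (SD, n = 3 each), and only the middle neighbours did not pass the test of their difference. Foxp3 was a gate for WT and ST2-/- cells through the reporter, so its transcript was in part chosen by the sort in 3 of the 4 groups. Of the other gate genes, Il2ra averaged 379 CPM in tumor Tbet-/-, 264 CPM in tumor ST2-/-, 321 CPM in tumor WT and 253 CPM in no tumor WT, and Il7r averaged 229, 379, 279 and 475 CPM in the same groups.

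Ikzf2 was the most abundant of the 5 genes per length in every group, with a mean of 57.6 FPKM in tumor Tbet-/-, 56.0 FPKM in tumor ST2-/-, 75.9 FPKM in tumor WT and 27.5 FPKM in no tumor WT from the deposited log2 FPKM values. In CPM, Ikzf2 stood at 533, 549 and 547 in tumor Tbet-/-, 531, 524 and 531 in tumor ST2-/-, 701, 739 and 704 in tumor WT, and 260.2, 265 and 251 in no tumor WT. Tumor Tbet-/- and tumor ST2-/- lay close together without overlapping. The log2 fold change was 1.47 (SE 0.03, adjusted p = 4.5e-59) in tumor WT against no tumor WT, -0.44 (adjusted p = 3.8e-24) in tumor ST2-/- and -0.40 (adjusted p = 4.9e-22) in tumor Tbet-/- against tumor WT. Between tumor Tbet-/- and tumor ST2-/- it was 0.04 (SE 0.03, adjusted p = 0.26), the one pair of neighbours in its order that did not pass the test.

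Ikzf4, whose product Eos is known as a partner of Foxp3 in gene repression, was the least abundant per length, at a mean of 5.88 FPKM in tumor Tbet-/-, 8.20 FPKM in tumor ST2-/-, 10.9 FPKM in tumor WT and 5.04 FPKM in no tumor WT. It had 20.4, 20.5 and 21.9 CPM in tumor Tbet-/-, 27.9, 30.6 and 29.3 CPM in tumor ST2-/-, 39.1, 38.98 and 38.8 CPM in tumor WT, and 20.4, 17.3 and 16.0 CPM in no tumor WT. The tumor ST2-/- libraries thus lay between tumor WT and the other groups, and tumor Tbet-/- met the highest no tumor WT library. The log2 fold change was 1.13 (SE 0.10, adjusted p = 9.9e-17) in tumor WT against no tumor WT, -0.41 (SE 0.10, adjusted p = 0.00028) in tumor ST2-/- and -0.90 (SE 0.10, adjusted p = 1.6e-12) in tumor Tbet-/- against tumor WT. Tumor Tbet-/- was lower than tumor ST2-/- by a log2 fold change of -0.49 (adjusted p = 3.7e-05). Against no tumor WT it was 0.23 (SE 0.11, adjusted p = 0.056), and this value passed the test without replicate 1 of no tumor WT (0.33, adjusted p = 0.013) or without any 1 of the tumor ST2-/- libraries. It also passed with RLE size factors (adjusted p = 0.048), the likelihood ratio test (0.048), DESeq2 (0.042), limma on log2 FPKM (0.048) and library sizes without marker genes of other cells (0.034), so its call depends on the fit. The other Ikaros family genes, listed as Ikzf1, Ikzf3 and Ikzf5, did not follow Ikzf2 and Ikzf4 in each comparison. In tumor WT against no tumor WT 2 of 3 were lower (29.4% of all genes), Ikzf1 at -0.41 (adjusted p = 5.2e-27) and Ikzf3 at -0.61 (adjusted p = 2.4e-27), and both were higher in tumor ST2-/- than in tumor WT (23.1% of all genes), at 0.24 and 0.48. All 3 were lower in tumor Tbet-/- than in tumor WT (20.6% of all genes), Ikzf5 by a log2 fold change of -0.28 (adjusted p = 0.00072).

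Ctla4, the inhibitory receptor, had 56.4, 63.1 and 57.7 CPM in tumor Tbet-/-, 47.5, 44.6 and 49.0 CPM in tumor ST2-/-, 91.8, 89.1 and 83.7 CPM in tumor WT, and 22.1, 30.2 and 33.5 CPM in no tumor WT. The 4 groups did not overlap, and each pair of neighbours in the order passed the test. The no tumor WT libraries spread most, with an SD of 5.85 CPM about a mean of 28.6 CPM. The log2 fold change was 1.62 (SE 0.08, adjusted p = 3.9e-31) in tumor WT against no tumor WT, -0.91 (SE 0.08, adjusted p = 1.7e-17) in tumor ST2-/- and -0.58 (SE 0.08, adjusted p = 4.2e-10) in tumor Tbet-/- against tumor WT. Tumor Tbet-/- was higher than tumor ST2-/- by 0.33 (adjusted p = 0.00029).

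Of the genes listed for the CTLA-4 axis, Cd28 is the receptor that competes with it, Cd80 and Cd86 are the ligands, and Lrba keeps CTLA-4 from lysosomal decay. All 4 were higher in tumor WT against no tumor WT (29.0% of all genes), with Cd28 at 1.64 (adjusted p = 1.4e-43), Cd80 at 1.09 and Lrba at 0.41. All 4 were lower in tumor ST2-/- against tumor WT (22.8% of all genes), with Cd28 at -1.18 (adjusted p = 4.2e-34). Only 2 of 4 passed in tumor Tbet-/- against tumor WT, both lower (20.6% of all genes): Cd86 at -0.86 (adjusted p = 1e-09) and Lrba at -0.13 (adjusted p = 0.0032), while Cd28 had a log2 fold change of -0.08 (adjusted p = 0.21). The median over the 4 genes was 1.04, -0.73 and -0.10 in these comparisons, and the median of all genes was 0.0037, -0.0024 and 0.0053. Relative to Cd3e and Cd4, taken up below, 1 was higher (1.63% of all genes) and 3 lower (87.2%) in tumor WT against no tumor WT. The myeloid markers summed to 8828 to 9116 CPM in tumor WT, 5220 to 5887 CPM in tumor ST2-/-, 7308 to 7439 CPM in tumor Tbet-/- and 5459 to 5757 CPM in no tumor WT. Their part in these values was not tested.

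Nrp1, the semaphorin receptor, had 93.2, 86.9 and 90.2 CPM in tumor Tbet-/-, 44.9, 63.6 and 51.7 CPM in tumor ST2-/-, 74.1, 73.6 and 78.04 CPM in tumor WT, and 36.0, 40.2 and 38.6 CPM in no tumor WT. It was the one member with its highest level in tumor Tbet-/-, and no groups overlapped. The log2 fold change was 0.97 (SE 0.07, adjusted p = 2.7e-20) in tumor WT against no tumor WT and -0.49 (SE 0.07, adjusted p = 1.7e-08) in tumor ST2-/- against tumor WT. In tumor Tbet-/- it was 0.26 (SE 0.07, adjusted p = 0.0014) against tumor WT and 0.75 (SE 0.07, adjusted p = 1.7e-15) against tumor ST2-/-. The difference from tumor WT did not pass the test with limma on the deposited log2 FPKM values (0.26, adjusted p = 0.074). Nrp1 is also known in myeloid and endothelial cells, whose summed markers were 7308 to 7439 CPM and 158 to 162 CPM in tumor Tbet-/-, against 8828 to 9116 CPM and 263 to 282 CPM in tumor WT, and their part in the result was not tested.

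Of 13 genes listed for the Nrp1 axis, 4 were higher and 4 lower in tumor WT relative to no tumor WT (29.0% and 29.4% of all genes). In tumor ST2-/- 1 was higher and 2 were lower than in tumor WT (23.1% and 22.8% of all genes). In tumor Tbet-/- 4 were higher and 2 lower than in tumor WT (18.1% and 20.6% of all genes). Sema4a, a ligand of Nrp1, was higher in tumor WT relative to no tumor WT at 0.63 (adjusted p = 4.7e-20), lower in tumor ST2-/- than in tumor WT at -0.55 (adjusted p = 1.5e-16) and higher in tumor Tbet-/- than in tumor WT at 0.40 (adjusted p = 1.1e-11). Nrp2, the paralog of Nrp1, was higher in tumor WT relative to no tumor WT at 1.73 (adjusted p = 5.4e-21), and its log2 fold change was 0.14 (adjusted p = 0.36) in tumor Tbet-/- against tumor WT. Kdr, a receptor of vascular endothelial growth factor, was lower in tumor Tbet-/- than in tumor WT at -2.01 (adjusted p = 7.9e-11). The median of the list was 0.16, 0.04 and -0.04 in these comparisons.

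The sorted cells were also compared per T cell transcript, because Cd3e, a chain of the T cell receptor complex, and Cd4, the coreceptor of the gate, themselves moved. Their means were 269 and 320.5 CPM in tumor Tbet-/-, 125 and 120.1 CPM in tumor ST2-/-, 236 and 243 CPM in tumor WT, and 95.3 and 83.0 CPM in no tumor WT. Cd3e had log2 fold changes of 1.31 in tumor WT against no tumor WT, -0.92 in tumor ST2-/- against tumor WT and 0.19 in tumor Tbet-/- against tumor WT, and Cd4 had 1.55, -1.02 and 0.40. Cd4 also moved against Cd3e in some comparisons, by 0.24 (adjusted p = 0.0015) in tumor WT against no tumor WT, -0.09 (adjusted p = 0.22) in tumor ST2-/- against tumor WT and 0.21 (adjusted p = 0.011) in tumor Tbet-/- against tumor WT. With the sum of Cd3e and Cd4 counts as the library size, the median of all genes shifted to -1.42, 0.97 and -0.29 in these comparisons, to -1.26 in tumor Tbet-/- against tumor ST2-/-, and to -0.47 and -1.72 in tumor ST2-/- and tumor Tbet-/- against no tumor WT. Changes on this scale are to be read beside those medians.

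**Figure D3:**
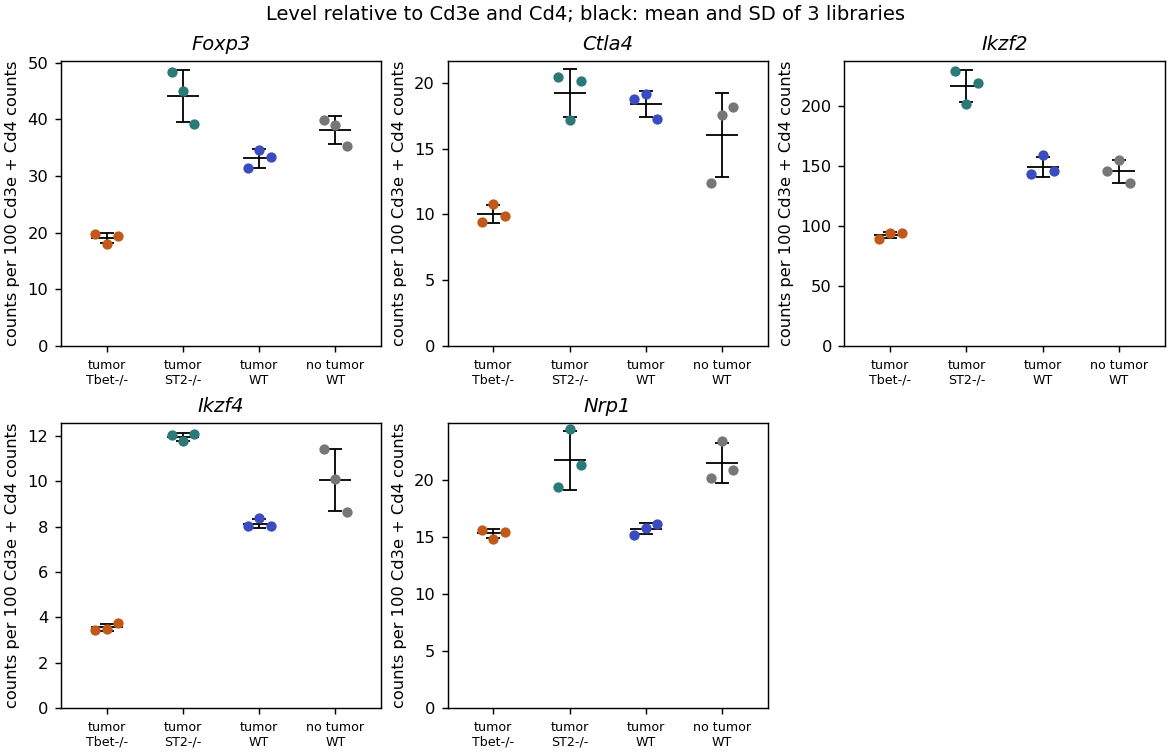
Counts of each gene per 100 counts of Cd3e and Cd4 together, on axes that start at 0, with 1 point per library and the mean and SD of 3 libraries in black. Tumor Tbet-/- libraries are lowest for Foxp3, Ctla4, Ikzf2 and Ikzf4, and tumor ST2-/- libraries have the highest mean for all 5 genes.

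Per 100 counts of Cd3e and Cd4, Foxp3 had 19.7, 18.1 and 19.4 counts in tumor Tbet-/-, 48.3, 44.9 and 39.2 in tumor ST2-/-, 31.4, 34.7 and 33.4 in tumor WT, and 39.9, 38.96 and 35.2 in no tumor WT. Tumor Tbet-/- lay below all other libraries, and tumor ST2-/- overlapped with no tumor WT. The log2 fold change was -0.80 (adjusted p = 1.6e-23) in tumor Tbet-/- and 0.41 (adjusted p = 1.7e-08) in tumor ST2-/- against tumor WT, and -0.20 (SE 0.07, adjusted p = 0.0067) in tumor WT against no tumor WT. The last did not pass the test with Cd3e alone as the denominator (-0.08, adjusted p = 0.34), without replicate 1 of tumor WT (-0.16, adjusted p = 0.059) or without replicate 1 of no tumor WT (-0.16, adjusted p = 0.053). Nor did it pass with the sum of the T cell genes as the denominator (-0.09, adjusted p = 0.14).

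Ikzf2 had 89.1, 93.7 and 93.7 counts per 100 of Cd3e and Cd4 in tumor Tbet-/-, 229, 202 and 219 in tumor ST2-/-, 143, 159 and 145 in tumor WT, and 146, 155 and 136 in no tumor WT. It was lower in tumor Tbet-/- than in tumor WT at -0.70 (adjusted p = 8.5e-28) and higher in tumor ST2-/- than in tumor WT at 0.54 (adjusted p = 3.6e-19), while tumor WT and no tumor WT overlapped (0.04, adjusted p = 0.51). The value of 0.04 depends on the denominator. It was 0.16 with Cd3e alone (adjusted p = 0.022) and 0.14 with the sum of the T cell genes (adjusted p = 0.00015). With Cd4 alone it was -0.09 (adjusted p = 0.12). Ikzf4 had 3.42, 3.49 and 3.74 counts in tumor Tbet-/-, 12.02, 11.8 and 12.1 in tumor ST2-/-, 8.01, 8.38 and 8.01 in tumor WT, and 11.4, 10.1 and 8.65 in no tumor WT. Its log2 fold change was -1.20 (adjusted p = 5.6e-21) in tumor Tbet-/- and 0.56 (adjusted p = 1.3e-06) in tumor ST2-/- against tumor WT, and -0.30 (adjusted p = 0.0095) in tumor WT against no tumor WT. The value of -0.30 did not pass without replicate 1 of no tumor WT (-0.21, adjusted p = 0.12). Nor did it pass with Cd3e alone (-0.18, adjusted p = 0.13) or the sum of the T cell genes (-0.20, adjusted p = 0.074) as the denominator.

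Ctla4 had 9.42, 10.8 and 9.89 counts per 100 of Cd3e and Cd4 in tumor Tbet-/-, 20.4, 17.2 and 20.2 in tumor ST2-/-, 18.8, 19.1 and 17.3 in tumor WT, and 12.4, 17.6 and 18.1 in no tumor WT. Only tumor Tbet-/- stood clear of the other libraries, at -0.88 (adjusted p = 4.8e-19) against tumor WT, and tumor ST2-/- differed from tumor WT by 0.06 (SE 0.09, adjusted p = 0.49). In tumor WT against no tumor WT it was 0.19 (SE 0.09, adjusted p = 0.041), which did not pass without replicate 1 or 2 of tumor WT (0.18 and 0.16, adjusted p = 0.1 and 0.13) or without replicate 1 of no tumor WT (0.04, adjusted p = 0.69). The value of 0.19 became 0.07 (adjusted p = 0.45) with Cd4 alone as the denominator. Nrp1 had 15.6, 14.8 and 15.5 counts in tumor Tbet-/-, 19.3, 24.5 and 21.3 in tumor ST2-/-, 15.2, 15.8 and 16.1 in tumor WT, and 20.1, 23.4 and 20.9 in no tumor WT. These formed 2 levels, with tumor Tbet-/- and tumor WT below tumor ST2-/- and no tumor WT. Nrp1 was higher in tumor ST2-/- than in tumor WT at 0.47 (adjusted p = 9e-08) and lower in tumor WT relative to no tumor WT at -0.45 (SE 0.09, adjusted p = 2.9e-07), and tumor Tbet-/- differed from tumor WT by -0.04 (SE 0.08, adjusted p = 0.72).

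Counted on this scale, 4 members were lower in tumor Tbet-/- than in tumor WT, where 50.7% of all genes were lower. For tumor ST2-/- against tumor WT 4 were higher, where 84.7% of all genes were higher, and the median of the members was below that of all genes. Tumor WT against no tumor WT had 3 lower and 1 higher, where 87.2% of all genes were lower and 1.63% higher, and this count of 4 became 2 without replicate 1 of tumor WT and 1 without replicate 1 of no tumor WT. All 5 were lower in tumor Tbet-/- against tumor ST2-/- (88.5% of all genes), from -0.51 for Nrp1 to -1.75 for Ikzf4. Against no tumor WT, 5 were lower in tumor Tbet-/- (89.6% of all genes). Another 4 calls, all higher, were made in tumor ST2-/- against no tumor WT, where 4.02% of all genes were higher, with Ikzf2 at 0.57 (adjusted p = 5.5e-20), Ctla4 at 0.26 (adjusted p = 0.011), Ikzf4 at 0.25 (adjusted p = 0.044) and Foxp3 at 0.22 (adjusted p = 0.0055). That count became 2 without replicate 1 or 3 of tumor ST2-/- or replicate 3 of no tumor WT, and 1 with Cd4 alone as the denominator, where Ikzf2 was the gene that passed. Foxp3 missed the threshold when either of 2 single libraries was left out, Ctla4 when either of 2 others was, and Ikzf4 when any of 6 was, while Ikzf2 kept its call in each of these fits.

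**Figure D4:**
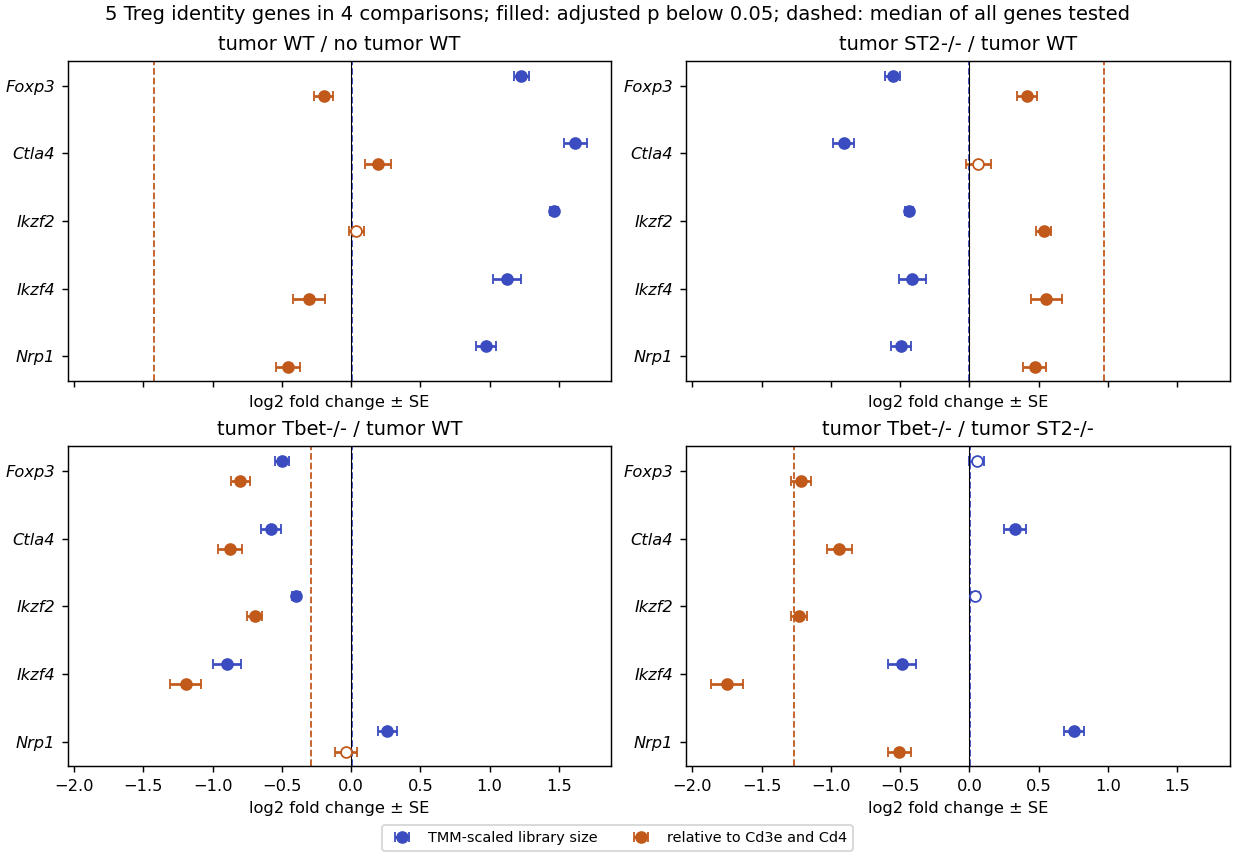
Log2 fold change with its SE for the 5 genes in 4 comparisons, after TMM scaling (blue) and relative to Cd3e and Cd4 (orange), with filled points at an adjusted p below 0.05 and dashed lines at the median of all genes tested. In tumor ST2-/- against tumor WT the blue points lie between -0.91 and -0.41 and the orange points between 0.06 and 0.56, and in tumor Tbet-/- against tumor WT Ikzf4 lies lowest on both scales.

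Per Foxp3 transcript, the other 4 genes were set against the factor itself. The median of all genes shifted to -1.22 in tumor WT against no tumor WT, 0.56 in tumor ST2-/- and 0.51 in tumor Tbet-/- against tumor WT, -0.06 in tumor Tbet-/- against tumor ST2-/-, and -0.68 and -0.72 in tumor ST2-/- and tumor Tbet-/- against no tumor WT. Nrp1 had 79.2, 82.1 and 79.8 counts per 100 counts of Foxp3 in tumor Tbet-/-, 40.0, 54.5 and 54.3 in tumor ST2-/-, 48.3, 45.6 and 48.3 in tumor WT, and 50.4, 60.1 and 59.3 in no tumor WT. The tumor Tbet-/- libraries lay above all others, at 0.76 (adjusted p = 5.5e-12) against tumor WT, 0.70 (adjusted p = 8.1e-10) against tumor ST2-/- and 0.50 (adjusted p = 5.6e-06) against no tumor WT. Ikzf4 had 17.4, 19.3 and 19.3 counts per 100 of Foxp3 in tumor Tbet-/-, 24.9, 26.2 and 30.8 in tumor ST2-/-, 25.5, 24.2 and 24.0 in tumor WT, and 28.6, 25.9 and 24.5 in no tumor WT. It was lowest in tumor Tbet-/-, at -0.40 (adjusted p = 0.0043) against tumor WT and -0.55 (adjusted p = 0.00022) against tumor ST2-/-, and the other 3 groups overlapped.

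**Figure D5:**
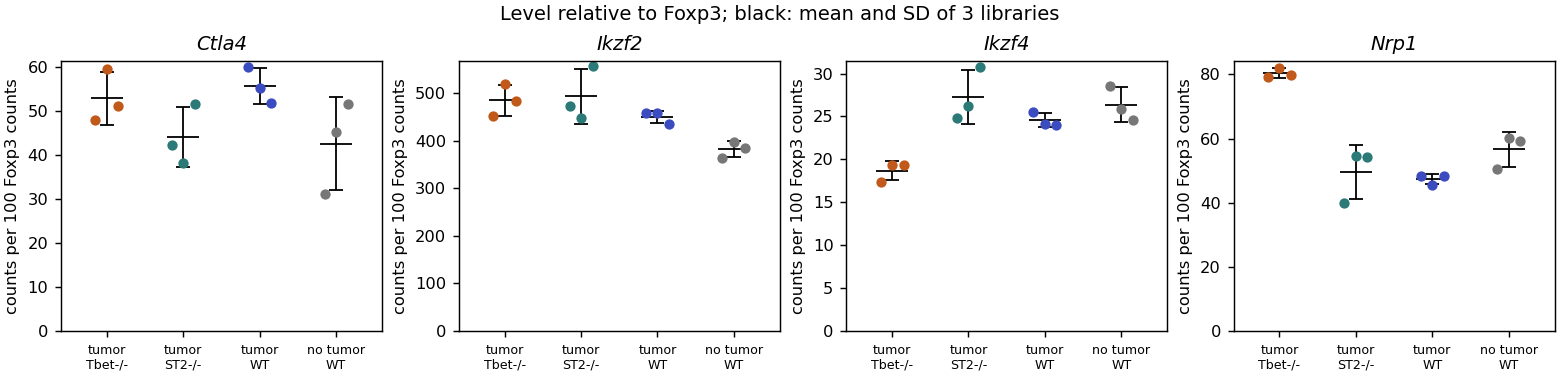
Counts of Ctla4, Ikzf2, Ikzf4 and Nrp1 per 100 counts of Foxp3, on axes that start at 0, with 1 point per library and the mean and SD of 3 libraries in black. Tumor Tbet-/- libraries stand above the others for Nrp1 (79.2 to 82.1) and below them for Ikzf4 (17.4 to 19.3).

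Ctla4 had 47.9, 59.6 and 51.1 counts per 100 of Foxp3 in tumor Tbet-/-, 42.3, 38.2 and 51.5 in tumor ST2-/-, 59.9, 55.2 and 51.8 in tumor WT, and 31.0, 45.1 and 51.5 in no tumor WT. Tumor WT lay above the other WT group, at 0.39 (adjusted p = 0.0008), and tumor ST2-/- was lower than tumor WT at -0.34 (adjusted p = 0.0035). The first of these did not pass without replicate 1 of no tumor WT (0.20, adjusted p = 0.12). Ikzf2 had 453, 518 and 484 counts in tumor Tbet-/-, 473, 448 and 558 in tumor ST2-/-, 457, 458 and 436 in tumor WT, and 365, 397 and 385 in no tumor WT. It was higher than in no tumor WT by 0.34 (adjusted p = 0.00019) in tumor Tbet-/-, 0.37 (adjusted p = 6.4e-05) in tumor ST2-/- and 0.24 (adjusted p = 0.0094) in tumor WT, and the last did not pass without replicate 1 of no tumor WT (0.20, adjusted p = 0.051). Of the 4 genes, 2 were higher in tumor WT against no tumor WT and Nrp1 was lower, at -0.26 (adjusted p = 0.021), where 2.31% of all genes were higher and 83.4% lower, and 1 of these 3 calls was left without replicate 1 of no tumor WT. Nrp1 itself did not pass without replicate 2 of tumor WT or replicate 2 or 3 of no tumor WT (adjusted p = 0.083, 0.11 and 0.083). Ctla4 was the 1 gene called in tumor ST2-/- against tumor WT, where 2.26% of all genes were lower, and Ikzf2 joined it without replicate 2 of tumor ST2-/- (0.19, adjusted p = 0.044).

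Between tumor Tbet-/- and tumor WT, 1 gene was higher (67.3% of all genes) and 1 lower (5.57%) in tumor Tbet-/-. In tumor Tbet-/- against tumor ST2-/-, 2 were higher (17.7% of all genes) and 1 lower (26.1%), and the call of Ctla4 at 0.27 (adjusted p = 0.04) did not pass when any of 7 single libraries was left out, among them each tumor WT library, which does not enter the difference itself but only the estimate of the spread. In tumor ST2-/- against no tumor WT, 1 was higher (2.59% of all genes), and Nrp1 was also called lower without replicate 2 or 3 of tumor ST2-/- or replicate 1 of no tumor WT (-0.27, -0.26 and -0.27). In tumor Tbet-/- against no tumor WT, 3 were higher (8.36% of all genes) and 1 lower (69.0%), and Ctla4 at 0.31 (adjusted p = 0.0088) did not pass without replicate 2 of tumor Tbet-/- (adjusted p = 0.11) or replicate 1 of no tumor WT (adjusted p = 0.34).

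Other Treg genes were taken as a list of 20, among them Icos, Tnfrsf4 (OX40) and Tnfrsf9 (4-1BB), which are costimulatory receptors, Tigit, an inhibitory receptor, and Lrrc32 (GARP), which holds latent TGF-beta on the cell surface. Of these, 18 of 20 were higher and 1, Swap70, was lower in tumor WT against no tumor WT, with a median of 1.12 (29.0% and 29.4% of all genes). Tumor ST2-/- had 1 higher and 16 lower against tumor WT, with a median of -0.47 (23.1% and 22.8% of all genes). In tumor Tbet-/- against tumor WT 2 were higher and 14 lower, with a median of -0.33 (18.1% and 20.6% of all genes). The medians of the 5 identity genes were 1.23, -0.49 and -0.50 in the same comparisons. The 13 T cell genes had medians of 1.41, -0.93 and 0.24 there, with 13 higher, 13 lower, and 8 higher beside 3 lower. Icos moved by 1.41, -0.89 and -0.55 in these comparisons (adjusted p = 1.8e-35, 2.6e-23 and 1.4e-13). Itgae, an integrin chain, and Lrrc32 had larger decreases in tumor Tbet-/- against tumor WT, at -1.37 (adjusted p = 4.3e-22) and -1.07 (adjusted p = 2.4e-13), than in tumor ST2-/- against tumor WT, at -0.38 and -0.57, and tumor Tbet-/- was lower than tumor ST2-/- for both, at -0.99 (adjusted p = 8.7e-15) and -0.50 (adjusted p = 0.0002). Il2ra was higher in tumor Tbet-/- than in tumor WT at 0.24 (adjusted p = 2.1e-09), as was Cish, a target of IL-2 signalling, at 0.41 (adjusted p = 5.1e-07). Relative to Cd3e and Cd4, 17 of the 20 were lower and none higher in tumor Tbet-/- than in tumor WT, 16 were higher in tumor ST2-/- than in tumor WT, and 13 were lower in tumor WT relative to no tumor WT, with medians of -0.62, 0.50 and -0.31. Of all genes, 50.7% were lower, 84.7% higher and 87.2% lower in the same 3 comparisons, with medians of -0.29, 0.97 and -1.42.

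Genes known to act on Foxp3 expression or on the protein, 22 in all, went both ways after TMM scaling. In tumor WT against no tumor WT 8 were higher and 12 lower, with a median of -0.16, where 29.0% of all genes were higher and 29.4% lower. Nr4a3 at 1.45 (adjusted p = 2.5e-23) and Nfatc2 at 1.11 (adjusted p = 3.3e-33), transcription factors downstream of the T cell receptor, were among the higher ones, and Foxo1 at -0.98 (adjusted p = 5.9e-39) and the histone methyltransferase Ezh2 at -1.22 (adjusted p = 3.9e-51) among the lower ones. For tumor ST2-/- against tumor WT 10 were higher and 9 lower (23.1% and 22.8% of all genes), with Nfatc2 at -0.73 (adjusted p = 5.1e-22) and Foxo1 at 0.67 (adjusted p = 1.2e-27). For tumor Tbet-/- against tumor WT 6 were higher and 10 lower (18.1% and 20.6% of all genes), with Nr4a3 at -0.95 (adjusted p = 1.3e-14), Foxo1 at -0.98 (adjusted p = 8.8e-36), Nfatc2 at 0.26 (adjusted p = 6e-06) and Runx3 at 0.55 (adjusted p = 1.5e-14). Foxo1 and Ezh2 are also used by B cells and progenitors, and the 11 B cell markers were all lower in tumor WT relative to no tumor WT, all higher in tumor ST2-/- than in tumor WT and all lower in tumor Tbet-/- than in tumor WT. The part of those cells in the result was not tested.

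Across the 12 libraries, Foxp3 and Ikzf2 had the highest correlation of any pair of the 5 genes on log2 CPM (Pearson's r = 0.96), and Ikzf4 and Nrp1 the lowest (0.39), as a description of points that share 4 groups, libraries and scaling. Relative to Cd3e and Cd4 the closest pair was Foxp3 and Ikzf4 (0.99). The 3 genes whose log2 CPM pattern over the 12 libraries was most like each member, among 8980 genes with a mean of at least 10 CPM, were Wwp1, Slc48a1 and Mmp9 for Foxp3 (r of 0.98 to 0.99), Tnfrsf4, Cd68 and Cfp for Ctla4 (0.98 to 0.99), Tmem65, Dst and Apoe for Ikzf2 (0.99), Myo10, Hmox1 and Sepp1 for Ikzf4 (0.98), and Shtn1, Pparg and Gatm for Nrp1 (0.98 to 0.995). Of these 15, Tnfrsf4 is in the list of other Treg genes and Cd68 is in the myeloid list. The lists are short, so absence from them does not show which cells the rest of the 15 came from, and this was not tested.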

How the data were processed

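RNA of sorted Treg cells was sequenced in 12 libraries. The reads were checked with FastQC, aligned with STAR to mm10 and counted per gene, and the authors deposited raw counts and log2 FPKM values. The deposited log2 FPKM values equal edgeR's log2 CPM after TMM less a constant for each gene. The tests were run on the counts with edgeR 4.0.16 under R 4.3.3. Of 14259 genes, 13782 passed filterByExpr, and 1 quasi-likelihood fit of all libraries gave 6 comparisons with Benjamini-Hochberg adjustment over all genes, with a call at an adjusted p below 0.05. The study's methods name 4 of these comparisons and add a log2 fold change threshold of 1, which was not required for a call here. The fit was repeated with the counts of Cd3e plus Cd4, and of Foxp3, as library size, in the last without Foxp3. An exact permutation test of 3 against 3 libraries could not go below 0.1. The scripts were tested on simulated data. The members and all gene lists were chosen with earlier results of these data known. Named genes were the members, Cd3e, Cd4, the genes of the sort gate, the targeted genes, examples from each list and the 3 genes most like each member. Alternatives were RLE, DESeq2 1.42.0, limma 3.58.1, other filters, tests and denominators, the replicate number as a block and leaving out each library. Fits without the libraries of tumor ST2-/- or of tumor Tbet-/- were added after seeing the data. Depth is given as total counts, and intervals between libraries cover these libraries only. Positions are from GENCODE on GRCm38 and promoters from RefSeq on GRCm38.p6.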

Additional observations from a re-analysis of the deposited data

How the results depend on the processing

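After TMM scaling, the number of called genes stayed within 1.5 times its value in 72 of 72 fits that left out 1 library and in 62 of 66 others. The 4 exceptions also required a log2 fold change beyond 1, the threshold of the study's methods. In tumor ST2-/- against tumor WT 0 genes were then called (2.66% of all genes higher and 2.42% lower). The count was 0 in tumor Tbet-/- against tumor WT (2.09% and 5.24%) and 0 in tumor Tbet-/- against tumor ST2-/- (5.17% and 7.28%). In tumor ST2-/- against no tumor WT 1 was higher (3.79% of all genes). At this threshold 4 were higher in tumor WT (8.85%) and 3 in tumor Tbet-/- (10.8%), both against no tumor WT. Relative to Cd3e and Cd4, leaving out 1 library gave 1 to 4 calls in tumor WT and 2 to 4 in tumor ST2-/-, both against no tumor WT, and with Cd4 alone 1 gene was called in the second. Relative to Foxp3 it gave 1 to 3 calls in tumor WT against no tumor WT, 1 to 2 in tumor ST2-/- against tumor WT and 1 to 2 in tumor ST2-/- against no tumor WT.

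Signs turned for values that did not pass the test. Nrp1 in tumor Tbet-/- against tumor WT, negative relative to Cd3e and Cd4, was 0.074 with Cd3e alone and 0.094 with the T cell list. With Cd4 alone, Ikzf2 in tumor WT and Nrp1 in tumor ST2-/-, both against no tumor WT, were -0.088 and -0.058. Leaving out 1 library gave -0.033 to 0.11 for Foxp3 in tumor Tbet-/- against tumor ST2-/- after TMM scaling, and relative to Cd3e and Cd4 -0.0097 to 0.085 for Ikzf2 in tumor WT and -0.081 to 0.091 for Nrp1 in tumor ST2-/-, against no tumor WT. Relative to Foxp3 it gave -0.011 to 0.20 for Nrp1 in tumor ST2-/- against tumor WT, -0.088 to 0.074 for Ikzf2 in tumor Tbet-/- against tumor ST2-/-, and -0.14 to 0.20 for Ctla4 and -0.045 to 0.11 for Ikzf4 in tumor ST2-/- against no tumor WT. The cause was not tested.

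The replicate numbers do not pair the libraries: deviations of same-numbered libraries had correlations of -0.02 to 0.02 over 18 pairs. With the replicate number as a block, 5 genes were called in tumor WT against no tumor WT after TMM scaling, and no count changed in any comparison on the 3 scales. Ikzf4, with the fewest counts of the 5 genes (243 at the lowest), had an SE of 0.10 in tumor WT against no tumor WT, against 0.03 for Ikzf2.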
